A study of Zea mays with 12 samples.

Results

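The genes xet1 and expa2 of maize (Zea mays), each tied by name to the loosening of the plant cell wall, were followed on all arrays of a study of leaves from plants grown in acid soil. All probe sets whose platform symbol, RefSeq symbol or synonym was xet1 or expa2 were taken. This gave 2 probe sets of the 17621 tested, 1 for each of the 2 genes, out of 1108 genes with a single symbol on the array. In RefSeq's gene table of maize the genes are LOC542312 (xet1) and LOC542648 (expa2). Both genes were chosen by measured values of these arrays, their log2 levels in the 4 groups, so that all of their differences between soils, lines and responses are described without a test.

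Leaves of 2 inbred lines were profiled, Cat100-6 and S1587-17, which the labels call tolerant of and sensitive to aluminium, with 3 arrays for each of 4 groups. The groups were Cat100-6 in acid soil, Cat100-6 in control soil, S1587-17 in acid soil and S1587-17 in control soil. The acid soil had a pH of 4.1 and an aluminium content of 10 mmolc/dm3, and the control was the same soil limed with Ca(OH)2 (0.8 g in each kg), at pH 5.5. Both soils were fertilised alike, and calcium was added to the acid soil as CaCl2. Seeds were germinated for 2 days, set out at 20 per bag and kept in the soil for 3 days at 26 °C with 16 h of light and 8 h of darkness. The labels call the samples of a group biological replicates but do not say whether they came from separate bags, so the p-values measure only the spread between these samples. A description shared by all samples reads "root leaves" and the source labels of Cat100-6 read "Ca100-6", which were taken here as leaves and as Cat100-6.

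Plant cells are enclosed by a wall of cellulose microfibrils held in a matrix of other polysaccharides, and the wall has to yield for a cell to enlarge. Xyloglucan endotransglucosylases such as the product of xet1 cut xyloglucan chains and rejoin them to other chains, which allows the matrix to be rearranged as it is stretched or built. Expansins such as the product of expa2 loosen walls without cutting them, and do so best at acid pH. The family has an alpha and a beta branch, and grasses such as maize have many beta-expansins and comparatively little xyloglucan.

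Leaf markers were present on every array. The mean of 3 mesophyll genes was 12.46 or higher and that of 4 bundle sheath genes 10.39 or higher on the log2 scale. The means of 3 root genes were 4.75 to 5.88 and those of 6 seed genes 4.63 to 5.06, and levels are not set against each other between these lists. By its correlation with its group, 1 array stood apart clearly. S1587-17 control soil replicate 3 had a correlation across probe sets of r = 0.963 to 0.967 with both group-mates, against 0.985 to 0.997 for all other pairs within groups. The differences of xet1 and expa2 that use this array are also given without it, as are the shares of probe sets that passed. Results for xet1 are also given without Cat100-6 acid soil replicate 2, which held the lowest value of this gene. All values are log2 expression as summarised by RMA, and a log2 difference of 1 is a change of 2-fold. Signals of different probe sets cannot be set against each other.

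The transcript of xet1 was low in 1 of the 4 groups. Its log2 level was 5.66, 4.12 and 6.65 on the arrays of Cat100-6 in acid soil, and 8.33, 8.55 and 9.03 on those of Cat100-6 in control soil. In S1587-17 it was 8.53, 8.68 and 8.26 in acid soil and 8.98, 8.67 and 9.98 in control soil. Every array of Cat100-6 in acid soil lay below every array of the 3 other groups. Over all probe sets, the soils did not overlap at 68.6% in Cat100-6, and the lines did not overlap at 45.5% in acid soil. From low to high, the means were 5.47 ± 1.28 in acid soil of Cat100-6, 8.49 ± 0.21 in acid soil of S1587-17, 8.64 ± 0.36 in control soil of Cat100-6 and 9.21 ± 0.68 in control soil of S1587-17 (each with its SD, n = 3). A gap of 1.61 parted the highest array of Cat100-6 acid soil from the lowest of S1587-17 acid soil, and the other neighbours in this order overlapped. The values in Cat100-6 acid soil were also the most scattered. Only 0.0284% of all probe sets had an SD at least as large in that group, where the median SD was 0.16. Among all tested probe sets the signal of xet1 stood at the 17.9th to 42.6th percentile on the arrays of Cat100-6 in acid soil, and at the 66.5th to 76.3rd on those of Cat100-6 in control soil.

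The transcript of expa2 differed by line. It held 4.47, 4.93 and 4.93 in Cat100-6 acid soil and 4.27, 4.07 and 4.49 in Cat100-6 control soil. In S1587-17 it held 6.48, 6.55 and 6.53 in acid soil and 6.35, 6.34 and 5.10 in control soil. All 6 arrays of Cat100-6 lay below all 6 of S1587-17. Over all probe sets, the lines did not overlap at 45.5% in acid soil and at 55.5% in control soil. The means were 4.78 ± 0.27 in acid soil and 4.28 ± 0.21 in control soil of Cat100-6, and 6.52 ± 0.04 in acid soil and 5.93 ± 0.72 in control soil of S1587-17 (each with its SD, n = 3). The highest mean was thus that of S1587-17 acid soil, followed by S1587-17 control soil, Cat100-6 acid soil and Cat100-6 control soil. The arrays of S1587-17 acid and control soil were 0.12 apart, those of Cat100-6 acid soil and S1587-17 control soil 0.17 apart, and those of the 2 soils in Cat100-6 overlapped. Without S1587-17 control soil replicate 3, Cat100-6 acid soil and S1587-17 control soil were 1.41 apart and the other gap was as before. The probe set was dim, at the 15.6th to 26.4th percentile of signal in Cat100-6 and at the 27.0th to 41.7th in S1587-17, where RMA values compress differences. Across the 12 arrays the levels of xet1 and expa2 correlated weakly (Pearson r = 0.288, given as a description). In leaf samples of this kind, fewer cells of a type that holds a transcript and less of the transcript per cell cannot be told apart.

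**Figure D1:**
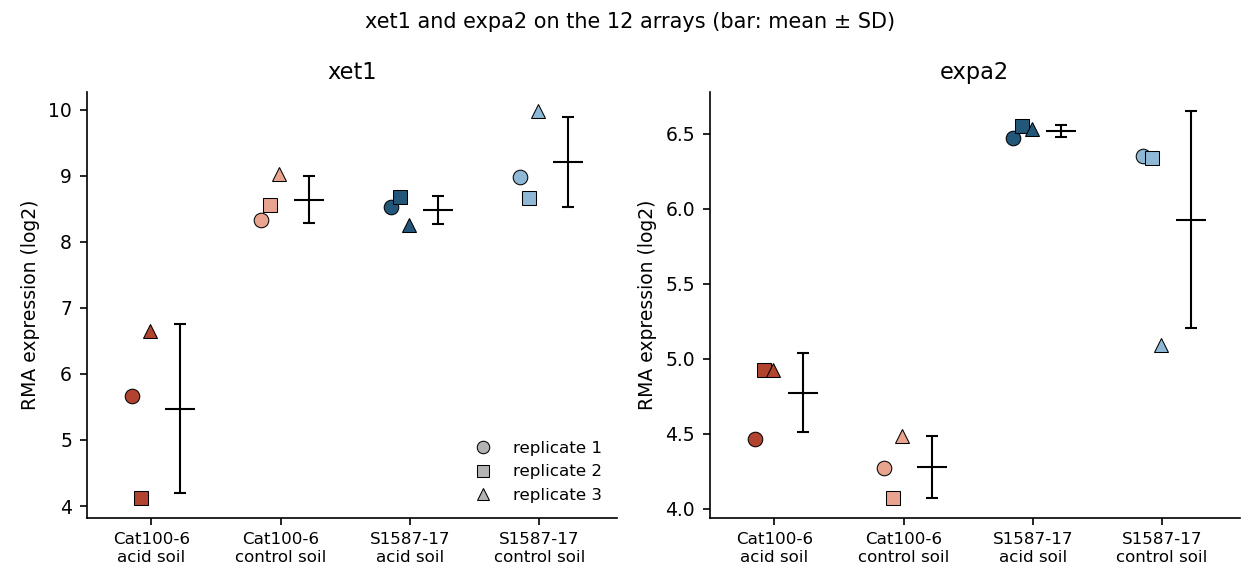
Log2 RMA expression (vertical axes) of xet1 and expa2 on each array of the 4 groups, with the marker shape giving the replicate number and the black bars the group mean ± SD (n = 3). xet1 lies between 4.12 and 6.65 in Cat100-6 acid soil and above 8 in the other groups, and expa2 lies below 5 in both soils of Cat100-6 and above it in S1587-17.

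In the tolerant line the level of xet1 was lower in acid soil than in control soil. It averaged 5.47 in acid soil and 8.64 in control soil of Cat100-6, a log2 difference of -3.16 ± 0.53 (SE, n = 3 each), or 8.95-fold lower in acid soil. The soils did not overlap and were 1.68 apart. Of all 17621 probe sets, 10 had a lower difference. Cat100-6 acid soil replicate 2 differed from the mean of the other 2 arrays of its group by -2.04, and without it the difference was -2.48 ± 0.39, or 5.59-fold lower. That array was the lowest of its group at 53.8% of the 39 probe sets of other wall genes and at 42.8% of all probe sets. Changes were widespread in this comparison. A total of 55% of all probe sets passed an adjusted p under 0.05 in limma, with 23.5% of all probe sets higher and 31.5% lower in acid soil, and the arrays of the soils did not overlap at 68.6%. The median of all probe sets was -0.14.

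For expa2 the soils overlapped in Cat100-6. The log2 difference was 0.50 ± 0.29, acid minus control soil, with a 95% confidence interval from -0.13 to 1.13. Without S1587-17 control soil replicate 3, which is in neither group but adds to the shared estimate of the spread, the interval was 0.20 to 0.80. This value was tied to the scale. It became 1.00 when the arrays were aligned on 9 spiked hybridization controls, RNAs added to the hybridization mix, whose mean was 9.71 ± 0.31 on the acid soil arrays of Cat100-6 and 10.21 ± 0.21 on its control soil arrays (SD, n = 3 each). On that scale 37.4% of all probe sets were higher and 5.96% lower in acid soil, the median of all probe sets was 0.36 and the difference of xet1 was -2.66.

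In S1587-17 the differences of both genes are given with their intervals as a description of their precision, not as a test. For xet1 the log2 difference between acid and control soil was -0.72 ± 0.53 (SE, 95% interval -1.88 to 0.44). For expa2 it was 0.59 ± 0.29 (interval -0.04 to 1.22). The intervals leave room for a decrease of xet1 and an increase of expa2 of more than 2-fold in acid soil. In this line 0% of the probe sets passed in limma, and 2 passed with array weights. An unadjusted p under 0.05 was found at 613 probe sets, and at 295 to 1971 with 1 array left out. The arrays of the soils did not overlap at 7.66% of all probe sets, expa2 among these. Both differences leaned on control soil replicate 3. That array was 1.15 above the mean of the other 2 for xet1 and 1.25 below it for expa2. Without it the differences were -0.33 (interval -1.49 to 0.82) for xet1 and 0.17 (interval -0.16 to 0.51) for expa2.

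The responses of the lines were set against each other for both genes. The response of xet1 was -3.16 in Cat100-6 and -0.72 in S1587-17, a difference of -2.44 ± 0.75 (SE), which was -2.83 ± 0.70 without S1587-17 control soil replicate 3 and -1.76 ± 0.52 without Cat100-6 acid soil replicate 2. With both of these arrays left out it was -2.15. In this comparison 14.7% of all probe sets passed, 5.92% with a lower value in Cat100-6. That share rested on single arrays. It was 44.9%, with 24.4% lower, without S1587-17 control soil replicate 3, and as little as 5.49% without S1587-17 acid soil replicate 1. The response of expa2 was 0.50 in Cat100-6 and 0.59 in S1587-17. Their difference of -0.09 ± 0.40 lay near 0, with an interval from -0.98 to 0.79, and its sign turned without Cat100-6 acid soil replicate 1 (0.061), Cat100-6 control soil replicate 3 (0.012) or S1587-17 control soil replicate 3 (0.32), without both S1587-17 control soil replicate 3 and Cat100-6 acid soil replicate 2 (0.25), with array weights (0.32), with a second quantile normalization (0.05) and on the scale of the spiked controls (0.31).

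Between the lines in acid soil both genes were lower in Cat100-6. The log2 difference, Cat100-6 minus S1587-17, was -3.01 ± 0.53 for xet1, or 8.08-fold lower, and -2.33 without Cat100-6 acid soil replicate 2, or 5.04-fold lower. For expa2 it was -1.74 ± 0.29, or 3.35-fold lower, with the lines 1.55 apart. A total of 24% of all probe sets passed here, 13.3% higher and 10.6% lower in Cat100-6, and the lines did not overlap at 45.5%. On the scale of the spiked controls 36% were higher and 3% lower. In control soil the genes parted ways. The difference of xet1 was -0.57 ± 0.53, with overlapping arrays, and -0.19 without S1587-17 control soil replicate 3. That of expa2 was -1.65 ± 0.29, or 3.14-fold lower in Cat100-6, with the lines 0.61 apart, and -2.07 ± 0.15, or 4.19-fold lower, without that array. In control soil 51.5% of all probe sets passed, 28.2% higher and 23.2% lower in Cat100-6, and the lines did not overlap at 55.5%. The share that passed was 61.3% without S1587-17 control soil replicate 3. A measure of RNA and labelling also moved with the line. For 5 control genes, the 3′ probe set minus the 5′ one gave a log2 value of 0.62 to 0.81 on the arrays of Cat100-6 and of 0.08 to 0.40 on those of S1587-17, and its part in the differences between lines was not tested. Whether the expa2 probes fit the sequence of both lines equally was not tested either.

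**Figure D2:**
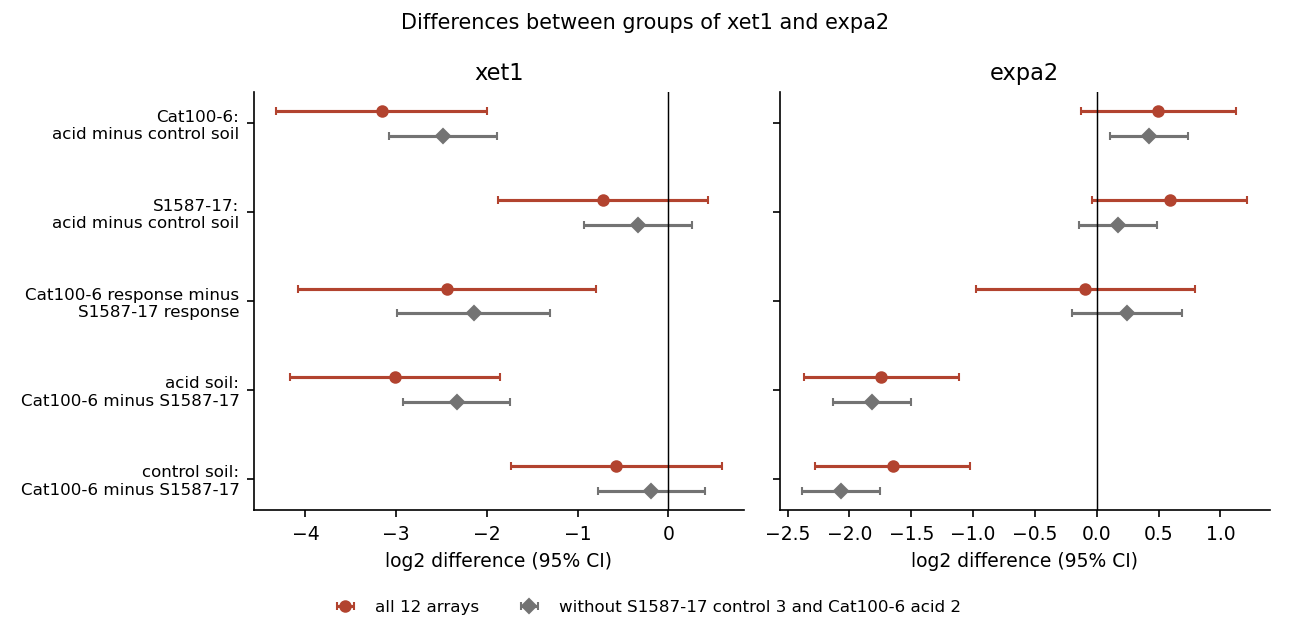
Log2 differences (horizontal axes, with 95% confidence intervals) of xet1 and expa2 for the soils within each line, the responses of the lines and the lines within each soil, on all 12 arrays and without S1587-17 control soil replicate 3 and Cat100-6 acid soil replicate 2. The xet1 values stand furthest from 0 for Cat100-6 in acid soil (-3.16 against its control soil and -3.01 against S1587-17), while those of expa2 do so between the lines in both soils (-1.74 and -1.65).

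Genes taken here as markers of cell division in the growing zone of the leaf differed between the soils in Cat100-6, and in S1587-17 they differed on 1 array. The list held cyc1, cyc2, cyc3, MCM6, MCM7, pcna1, pcna2, his1a and the tubulin genes TUA1, tua4, TUB2, tub4 and tub6. The mean log2 level of 13 such genes was 8.98 to 9.43 on the arrays of Cat100-6 in acid soil and 7.34 to 7.38 on those of Cat100-6 in control soil, and 12 of the 13 were higher in acid soil and 0 lower in limma, beside 23.5% of all probe sets higher. In S1587-17 the mean was 9.28 to 9.50 in acid soil. In S1587-17 control soil it was 9.37 and 9.57 on replicates 1 and 2 and 7.64 on replicate 3, the array that stood apart. The 3 mesophyll genes, 3 of the 4 bundle sheath genes, 2 of the 3 root genes and 3 of the 6 seed genes were lower in acid soil in Cat100-6, beside 31.5% of all probe sets, and none was higher. On the scale of the spiked controls 0 mesophyll, 2 bundle sheath, 1 root and 0 seed genes were lower, and 2 seed genes were higher. On the arrays of S1587-17 in acid soil, where the cell division genes were as high as 9.50, xet1 stood at 8.26 to 8.68, and on those of Cat100-6 in acid soil it stood at 4.12 to 6.65. Within S1587-17 control soil, the array with the low cell division mean held the highest xet1 (9.98) and the lowest expa2 (5.10). Within Cat100-6 acid soil, replicate 2 held the lowest xet1 (4.12) and the highest cell division mean (9.43, against 9.00 and 8.98). The mesophyll and bundle sheath means of that replicate (12.46 and 10.39) were the lowest of all arrays. Across Cat100-6 both soils gave expa2 values under 5 while the cell division mean differed between them. Between the lines in control soil, 9 of the 13 cell division genes were lower in Cat100-6 and 0 higher, beside 23.2% of all probe sets lower. In acid soil 1 was lower and 1 higher, beside 10.6% and 13.3% of all probe sets. The part of these markers in the differences of xet1 and expa2 was not tested.

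**Figure D3:**
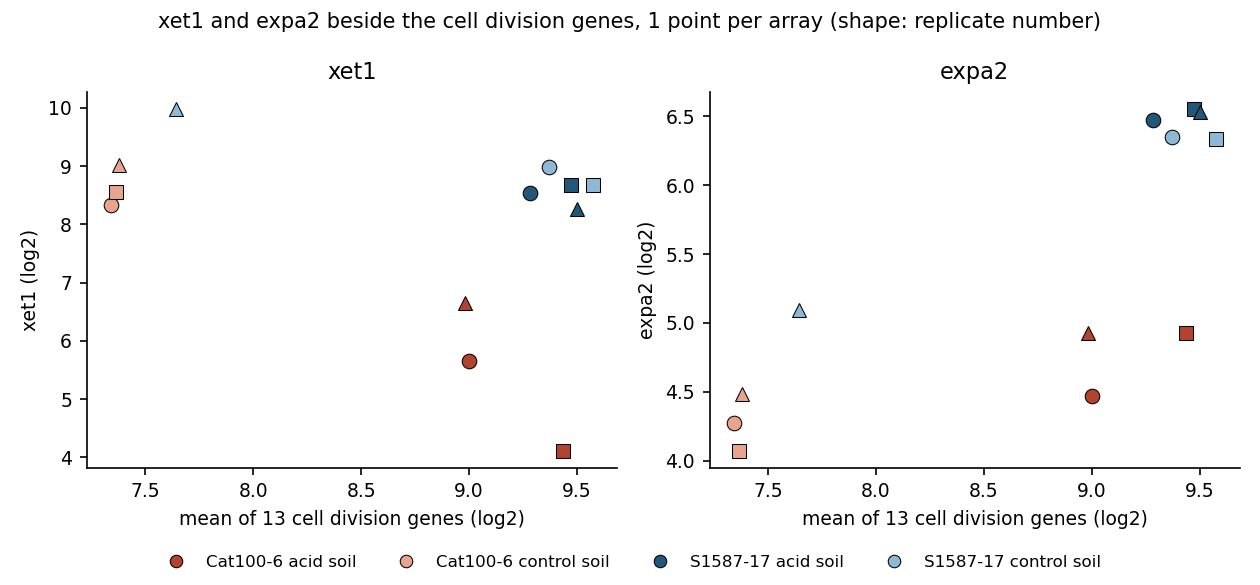
Level of xet1 and of expa2 (vertical axes, log2) against the mean of 13 cell division genes (horizontal axes, log2), with 1 point for each of the 12 arrays, coloured by group and shaped by replicate number. S1587-17 control soil replicate 3 lies at a cell division mean of 7.64, close to the arrays of Cat100-6 in control soil, whereas the xet1 values of Cat100-6 in acid soil lie below all others.

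The other expansins on the array gave a mixed response in Cat100-6. Of 16 probe sets of 11 genes, 6 were higher and 5 lower in acid soil and 5 did not pass, with a median log2 difference of -0.04 against -0.14 for all probe sets. The share that passed, 68.8%, stands beside 55% of all probe sets. Among alpha-expansins, the branch of expa2, all 6 probe sets of 4 genes passed, 4 higher and 2 lower. The gene expA4 rose at each of its 3 probe sets, by 1.65 ± 0.22 (SE, limma adjusted p = 0.000246), 1.30 ± 0.20 and 0.91 ± 0.23. Its brightest probe set held 10.02 ± 0.22 in acid soil and 8.37 ± 0.11 in control soil (mean log2 ± SD, n = 3 each). The gene expA3 rose by 1.11 ± 0.21 (adjusted p = 0.00154). EXPA5 fell by 0.89 on the log2 scale (SE 0.24, adjusted p = 0.00946) and expa1 fell by 0.66 (SE 0.24, adjusted p = 0.0390), but on the scale of the spiked controls neither passed, at -0.40 and -0.16. The expa1 call was also lost when Cat100-6 acid soil replicate 2 was dropped (-0.36, adjusted p = 0.143), without any 1 of the 3 control soil arrays of Cat100-6 or without S1587-17 acid soil replicate 2.

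Beta-expansins had 2 probe sets higher, 3 lower and 5 not passing of 10, from 7 genes. The share that passed, 50%, was near the 55% of all probe sets. The probe sets of expB8 did not move together. Its brightest rose by 0.80 ± 0.14 (adjusted p = 0.000894) and another by 1.85 ± 0.17 (adjusted p = 3.67e-05), whereas its dimmest fell by 0.35 (SE 0.12, adjusted p = 0.0288), a call that was lost without Cat100-6 acid soil replicate 1 or 2 or control soil replicate 2 or 3, and whose value became 0.14 on the scale of the spiked controls. The gene expB7 fell by 1.13 on the log2 scale (SE 0.26, adjusted p = 0.00378), with 5.96 ± 0.59 in acid soil and 7.10 ± 0.08 in control soil (mean log2 ± SD, n = 3 each). A probe set of expB5 fell by 0.50 (SE 0.15, adjusted p = 0.0150), and it stood at -0.0075 with the spiked controls and did not pass without Cat100-6 control soil replicate 2 (adjusted p = 0.0603). The other probe set of expB5 (-0.11) and those of expB6 (-0.53), expB3 (-0.05), expB4 (-0.02) and EXPB1B (0.04) did not pass.

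In S1587-17 no other expansin passed. The 16 probe sets differed between acid and control soil by -0.32 to 0.50, with a median of 0.01, and 1 had an unadjusted p under 0.05. The difference of responses passed at 3 probe sets, all with a higher value in Cat100-6, as had 8.76% of all probe sets. These were the brightest of expA4 (1.21 ± 0.31, adjusted p = 0.0282) and both rising probe sets of expB8 (0.65 ± 0.19 and 1.68 ± 0.24, adjusted p = 0.0451 and 0.00248). The calls of the first 2 ended when most single arrays were left out, with adjusted p-values up to 0.0705 and 0.102. Without S1587-17 control soil replicate 3 the 3 values were 1.51, 0.71 and 1.89 and all passed. Over the 16 probe sets 5 were then higher and 3 lower, beside 20.6% and 24.4% of all probe sets. Between the lines in acid soil, expA3 (1.09 ± 0.21) and the brightest probe set of expA4 (0.91 ± 0.22) were higher in Cat100-6. Another probe set of expA4 stood at -0.29 and did not pass, nor did the third. In the same soil expB3 was lower in Cat100-6 (-0.64 ± 0.14, and -0.19 and not passing with the spiked controls). In control soil, expB7 was higher in Cat100-6 (0.82 ± 0.26, a call lost without Cat100-6 control soil replicate 1 or S1587-17 control soil replicate 1 or 2), and 1 probe set of expA4 (-1.09 ± 0.20), 2 of expB8 (-0.68 ± 0.14 and -1.80 ± 0.17) and that of expB3 (-0.53 ± 0.14) were lower. Without S1587-17 control soil replicate 3 these values were 1.04, -1.36, -0.74, -2.01 and -0.39, and all passed. Between the lines 18.8% of the 16 passed in acid soil, beside 24% of all probe sets. In control soil 31.2% passed, beside 51.5%, and without S1587-17 control soil replicate 3 this was 62.5% beside 61.3%. None of the 16 passed with a lower level in Cat100-6 in both soils except expB3. The control soil call of expB3 ended with the spiked controls (-0.48). The share of all probe sets that passed with a lower level in both soils was not counted.

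**Figure D4:**
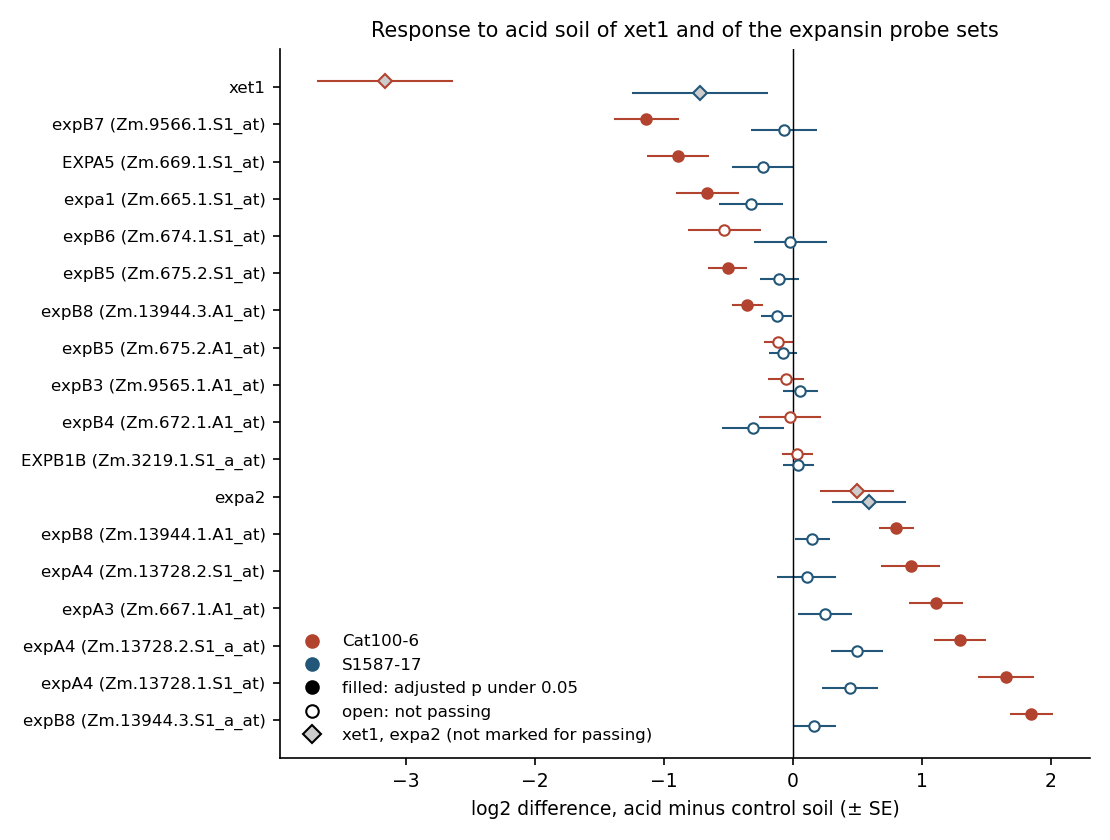
Log2 difference between acid and control soil (horizontal axis, ± SE) of xet1, expa2 and the 16 other expansin probe sets in Cat100-6 and in S1587-17, ordered by the value in Cat100-6. Filled circles passed an adjusted p under 0.05, open circles did not, and xet1 and expa2 are drawn as diamonds with no call. The values of Cat100-6 run from -3.16 for xet1 to 1.85 for a probe set of expB8, while those of the other expansins in S1587-17 stay between -0.32 and 0.50.

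The array names no other xyloglucan enzyme by symbol, so xet1 was set beside the wall's other builders and modifiers. Of 23 probe sets of 19 genes outside the expansins, 4 were higher and 7 lower in acid soil in Cat100-6. This was 47.8% beside the 55% of all probe sets that passed, and 0 passed in S1587-17, as on the whole array. Among the cellulose synthase and related genes, 1 of 13 probe sets was higher and 4 were lower, 38.5% beside the same 55%. The cellulose synthase genes cesa7 and cesa5 fell by 1.16 (SE 0.24, adjusted p = 0.00268) and by 0.56 (SE 0.12, adjusted p = 0.00246), although cesa5 stood at -0.066 with the spiked controls. Another, cesa3, rose by 0.33 ± 0.11 (adjusted p = 0.0257), a call that was lost when Cat100-6 acid soil replicate 2 was dropped (0.26, adjusted p = 0.0949). The cesa3 call was also lost without Cat100-6 acid soil replicate 1 or control soil replicate 2 or 3. It did not pass with array medians subtracted (0.23), with array weights or with a second quantile normalization. Nor did it pass without both S1587-17 control soil replicate 3 and Cat100-6 acid soil replicate 2. The pectin methylesterase gene pme1 fell by 0.45 (SE 0.11, adjusted p = 0.00533) and stood at 0.048 with the spiked controls, and the polygalacturonase gene PG14, an enzyme that cuts pectin, did not pass (-0.20).

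Cell wall invertases split sucrose outside the cell. Of their 4 probe sets 2 were lower in acid soil in Cat100-6, beside 31.5% of all probe sets. These were incw1 at -1.83 ± 0.23 (adjusted p = 0.000181) and incw3 at -0.52 ± 0.09 (adjusted p = 0.00121, but -0.022 and not passing with the spiked controls), while INCW2 did not pass (-0.26). The levels of incw1 were 6.22 ± 0.27 in acid soil and 8.06 ± 0.18 in control soil of Cat100-6, and 5.94 ± 0.10 in acid soil and 6.41 ± 0.52 in control soil of S1587-17 (mean log2 ± SD, n = 3 each). RGP, named for a reversibly glycosylated polypeptide that handles sugar precursors of wall polysaccharides, rose at both of its probe sets (1.64 ± 0.22 and 1.96 ± 0.26, adjusted p = 0.000252 and 0.000272). HRGP, a hydroxyproline-rich wall protein, rose by 0.53 ± 0.15 at its brighter probe set (adjusted p = 0.0124). These rises stand beside 23.5% of all probe sets higher in acid soil in Cat100-6. The responses of the lines differed for incw1 (-1.36 ± 0.32, adjusted p = 0.0216) and for the brighter probe set of RGP (1.50 ± 0.30, adjusted p = 0.0130). Without S1587-17 control soil replicate 3 these values were -1.66 and 1.78, and both passed. The incw1 call was lost with the spiked controls (-0.96, adjusted p = 0.0516) and without Cat100-6 control soil replicate 1 or 2, S1587-17 acid soil replicate 1 or 2 or S1587-17 control soil replicate 1 or 2, with adjusted p-values up to 0.0571.

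Over all 39 probe sets of the other 30 wall genes, 10 were higher and 12 lower in Cat100-6, 56.4% beside 55% of all probe sets. The share of wall probe sets that changed in this line was thus near that of the whole array. Between the lines 7 were higher and 6 lower in Cat100-6 in control soil, 33.3% beside 51.5%, and 4 higher and 1 lower in acid soil, 12.8% beside 24%. In the difference of responses 5 were higher and 1 lower, 15.4% beside 14.7%. Without S1587-17 control soil replicate 3, 8 were higher and 7 lower in the difference of responses, 38.5% beside 44.9%, and 11 higher and 8 lower between the lines in control soil, 48.7% beside 61.3%.

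The genes whose levels followed xet1 most closely were looked up among 1059 named genes, by Pearson correlation over the 12 arrays. The closest was cax1, a cation/proton exchanger (r = 0.973), followed by por2, a vacuolar aquaporin also named TIP2-3 (0.965), ohp1, a bZIP transcription factor (0.961), Lsi6, a silicon channel also named NIP2-3 (0.960), and LOC542697 (0.957). All 5 had their lowest group mean in Cat100-6 acid soil, a pattern that their choice by correlation with xet1 favours. Their differences between soils in Cat100-6 ran from -0.49 for ohp1 to -2.24 for Lsi6, beside -3.16 for xet1. Once the group means were removed, the remaining deviations correlated at 0.782 to 0.914, but these deviations are part of the correlation by which the genes were chosen. Of the other wall genes, bk2, a COBRA-like gene whose loss makes maize stalks brittle, was closest to xet1 (r = 0.916, and 0.939 after removal of the group means). Furthest from xet1 were cesa3 (-0.890) and the brightest probe set of expA4 (-0.887), whose other probe sets stood at -0.332 and -0.672.

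For expa2 the closest was his2b5, a histone H2B (r = 0.982), then gst42, a glutathione transferase (0.972), sbip2a, a small basic aquaporin (0.971), HP3, named as a histidine phosphotransfer protein of the cytokinin relay (0.968), and zmm19, the MADS-box gene of the tunicate locus (0.960). All 5 were lower in Cat100-6 in both soils, a pattern that their choice by correlation with expa2 favours. Their differences between the lines in acid soil ran from -0.27 for sbip2a to -3.77 for his2b5, beside -1.74 for expa2. The deviations from the group means, which also took part in the choice, correlated at 0.793 to 0.966. Among other wall genes the values of expa2 ran closest to those of a probe set of RGP (0.778) and were most opposed to INCW2 (-0.878). These correlations describe arrays that share their groups and, within S1587-17 control soil, 1 deviating array.

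**Figure D5:**
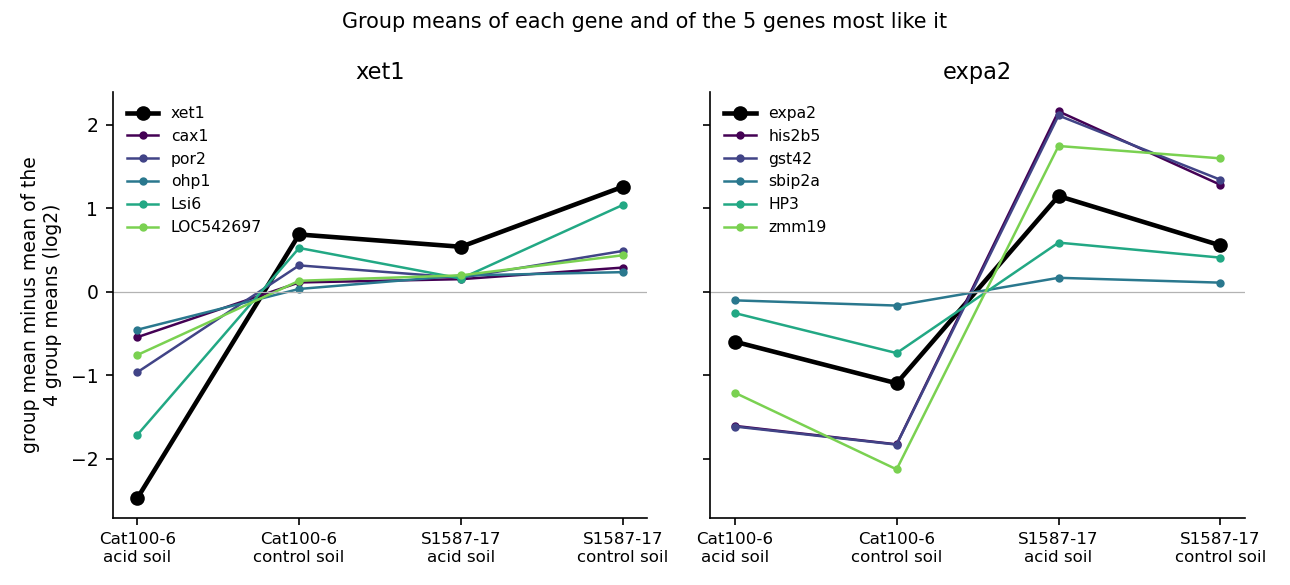
Group means (vertical axes, log2, centred on the mean of the 4 groups) of xet1 and of expa2 (black) and of the 5 named genes most like each over the 12 arrays (coloured lines). The genes drawn with xet1 are lowest in Cat100-6 acid soil, and those drawn with expa2 are lower in both soils of Cat100-6 than in S1587-17.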

How the data were processed

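The deposited table holds log2 expression values of 12 Affymetrix GeneChip Maize Genome Arrays (1 colour), made with RMA (background correction, normalization of the arrays to each other, and 1 value from the probes of each set), per the submitters' processing notes. Which software ran it, and with what settings, is not given in the sources used here. The values carry no detection calls, and arrays have no read depth, so that their number limits the precision. Groups and replicate numbers came from the sample titles, and 0 columns of values were left unused.

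Of 17734 probe sets, 113 controls were left out. The platform annotation gave 1 symbol to 1452 of the remaining 17621 and several to 1, while 16168 had none and stay unnamed. RefSeq's gene table of the B73 NAM 5.0 assembly held 1377 of the 1452 probe sets and 1060 of their 1108 genes. It was matched by gene ID and used for names only, and no coordinates or sequences were used.

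A single limma fit (version 3.58.1, R 4.3.3) with 1 mean for each of the 4 groups and empirical Bayes moderation, which left 8 residual degrees of freedom, gave all differences. Benjamini-Hochberg adjustment ran over all 17621 probe sets, and an adjusted p under 0.05 passed. No test is given for xet1 and expa2 themselves. One planned for S1587-17 was dropped, because the values of all 12 arrays took part in their choice. Both genes, the wall gene lists and the tests were chosen with earlier results of these data known. The lists were matched by symbol and synonym, and 6 genes so matched were left out because a synonym named another function. No glucan hydrolase was matched. Named in the text were each other expansin, up to 3 genes of lowest p per other wall list at the brightest probe set, and the 5 genes most like each of xet1 and expa2. The gene bk2 and further probe sets of a gene were added after their values were seen.

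The fit was tested on simulated data for the response of Cat100-6, with 50 of the 17621 probe sets changed at each of 4 sizes. It recovered 18% of changes of 0.5, 74% of changes of 1, 98% of changes of 2 and 100% of changes of 3 log2 units, with 8 false calls. Noise in the simulation was independent between probe sets and most of them were unchanged, whereas 55% passed in the data. These rates therefore need not hold for the data. As alternatives, the 40% dimmest probe sets were removed, the arrays were quantile-normalized again, centred on their medians or scaled to the spiked hybridization controls, and the fit was made on only the groups compared, with array weights, with a trended and robust variance, or with the replicate number as a block. Wall genes were also counted at 1 probe set each, and each array was left out in turn. Leaving out both S1587-17 control soil replicate 3 and Cat100-6 acid soil replicate 2 was chosen after seeing the data. Figures were drawn with matplotlib 3.10.9.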

Additional observations from a re-analysis of the deposited data

Results flagged for a closer look

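The 2 lines differed in their response to acid soil, by the test of the difference itself, at 4 other wall genes. In this test 15.4% of the 39 other wall probe sets passed, near the 14.7% of all probe sets. The values are the response of Cat100-6 minus that of S1587-17 on the log2 scale. The alpha-expansin gene expA4 differed by 1.21 at its brightest probe set (adjusted p = 0.0282). The beta-expansin gene expB8 differed by 0.65 and by 1.68 at 2 of its 3 probe sets (adjusted p = 0.0451 and 0.00248), and the third stood at -0.23 and did not pass. The cell wall invertase gene incw1 differed by -1.36 (adjusted p = 0.0216), and RGP by 1.50 at its brighter probe set (adjusted p = 0.0130). Leaving out single arrays ended the calls of expA4, of the first expB8 probe set and of incw1, with adjusted p-values up to 0.0705, 0.102 and 0.0571, and incw1 did not pass with the spiked controls either (0.0516). No group had enough arrays for a search for single outlying samples.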

How the results depend on the processing

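All 5 differences of xet1 kept their sign under every alternative run. With 1 array left out at a time, the response of xet1 ranged from -3.75 to -2.48 in Cat100-6 and from -0.99 to -0.33 in S1587-17, the difference of responses from -3.03 to -1.76, and the lines differed by -0.84 to -0.19 in control soil and by -3.60 to -2.33 in acid soil. Those ranges for expa2 were 0.40 to 0.65, 0.17 to 0.80, -0.30 to 0.32, -2.07 to -1.44 and -1.82 to -1.59. The filter on dim probe sets left expa2 out, so it has no value there, and neither gene has a second probe set to try. With array weights the difference of responses of expa2 was 0.32. Scaled to the spiked controls, expa2 stood at 1.00 for the response of Cat100-6, 0.31 for the difference of responses and -1.29 between the lines in acid soil. Without both S1587-17 control soil replicate 3 and Cat100-6 acid soil replicate 2 (here, the 2 arrays) it was 0.17 between the soils in S1587-17 and -2.07 between the lines in control soil. The causes were not tested.

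Counts of the other wall probe sets moved too, as did the shares of all probe sets. The counts are out of 39, but out of 30 with 1 probe set per gene and out of 24 without the 40% dimmest. In Cat100-6, 6 were higher with 1 probe set per gene. With the spiked controls 3 were lower, beside 5.96% of all probe sets. Without the 40% dimmest 7 were lower, beside 32.5% of all probe sets kept. In the difference of responses the higher count was 10 with array weights, beside 19.5% of all probe sets. It was 8 with the spiked controls, beside 11.4%, 11 without the 2 arrays, beside 20.4%, and 3 with 1 probe set per gene. The lower count was 4 with medians subtracted, beside 9.9%, and 7 with array weights, beside 22.4%. It was 0 with the spiked controls, beside 0.982%, and 6 without the 2 arrays, beside 23.8%. Between the lines in control soil, 12 were higher with array weights, beside 37.8% of all probe sets, and 4 with the spiked controls, beside 22.8%. Without the 2 arrays 14 were higher, beside 37.2%, and without the 40% dimmest 4 were, beside 34.2%. With 1 probe set per gene 3 were lower. In acid soil 12 were higher with the spiked controls, beside 36% of all probe sets, and 0 were lower, beside 3%. Without the 2 arrays 11 were higher, beside 21.6%, and without the 40% dimmest 1 was, beside 16.6%. With 1 array left out, the higher and lower counts ranged over 9 to 11 and 7 to 14 in Cat100-6, 3 to 8 and 0 to 7 in the difference of responses, 3 to 11 and 6 to 8 in control soil, 2 to 5 and 1 to 1 in acid soil, and stayed at 0 in S1587-17. The shares of all probe sets that passed then ranged over 43.9% to 62.1% in Cat100-6 and 5.49% to 44.9% in the difference of responses. Between the lines they ranged over 42.3% to 61.3% in control soil and 16.6% to 33.7% in acid soil.

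Signs of small responses in Cat100-6 turned for EXPB1B (-0.063 with medians subtracted, and down to -0.080 with 1 array left out, up to 0.11), expB3 (0.45 with the spiked controls, -0.13 to 0.035 with 1 array left out), expB4 (0.13 with array weights, 0.47 with the spiked controls, 0.29 without the 2 arrays, -0.20 to 0.29 with 1 array left out) and the dimmer probe set of expB5 (0.39 with the spiked controls, 0.065 with a second quantile normalization). With the spiked controls they also turned for a probe set of expB8 (0.14), pme1 (0.048), PG14 (0.29) and INCW2 (0.23). The replicate number as a block left the values of xet1 and expa2 as they were and made 2 wall probe sets lower in the difference of responses, against 1 without the block. Same-numbered arrays of the 2 soils had deviations with correlations from 0.02 to 0.16 for Cat100-6, and from -0.29 to 0.15 for S1587-17, so the numbers were not taken to pair the samples, and not every array correlated best with its own number.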
